A study of Mus musculus with 6 samples.

Results

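Cathepsins and legumain are proteases of the lysosome, and 10 of their genes were followed here: Ctsa, Ctsb, Ctsc, Ctsd, Ctsh, Ctsk, Ctsl, Ctss, Ctsz and Lgmn. They were taken by gene name from a read-count table of 35275 genes, each name matched 1 row, and all 10 had enough counts to be among the 14883 genes tested. Poly-A RNA had been sequenced from whole kidneys of wild-type C57Bl/6 mice killed 28 days after ischaemia-reperfusion injury, in which the blood supply of the kidney is stopped and then restored. Ischaemia had lasted 20 min in 3 kidneys (mild injury) and 35 min in 3 (severe injury), and the labels give the genotype as WT in both groups. Each difference below is severe against mild, since uninjured kidneys were not analysed here. Ctss, Ctsk and Ctsc were taken as myeloid-rich and the other 7 genes as tubule-rich. Whole-kidney RNA cannot check that division cell by cell.

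Cathepsins are made as inactive precursors, sorted from the Golgi to the lysosome by mannose 6-phosphate receptors, and activated in its acid interior by cleavage, partly by each other and by legumain. Most are cysteine proteases, while cathepsin D is an aspartic protease and cathepsin A a serine carboxypeptidase. In the kidney the proximal tubule uses them to degrade filtered protein. Macrophages and dendritic cells use them to process antigen, and cathepsins K and S, which can leave the cell, cut collagen and elastin.

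Promoter windows of RefSeq (build GRCm38.p6, the assembly also called mm10) reach from 250 bases before to 50 bases after an annotated start, and 10 such windows covered 8 of the genes. Ctsb and Ctsh had no window. Both strands were searched for the CACGTG box bound by the lysosomal regulators of the MiT/TFE family, for the myeloid PU.1 motif GAGGAAGT and for the AP-1 motif TGANTCA. None of these matches overlapped another motif. The CACGTG box was in 4 windows, those of Ctsa, Ctsd, Ctsl and Lgmn, and in 7.15% of all 32851 windows. GAGGAAGT was in 2 windows, those of Ctsc and Ctss, and in 3.20% of all windows. The windows of Ctsk (myeloid-rich) and Ctsz (tubule-rich) held neither motif. The AP-1 motif (7.81% of all windows) had no match in the 10 windows, which says only that these letters are not there. The 30 bases around a match are shown for 2 myeloid-rich and 3 tubule-rich genes, because the matches to the myeloid motif and to the lysosomal box fell in different classes. They are written 5′ to 3′ on the strand of the gene with the match in capitals. A match is no evidence of binding.
Ctss, chr3:95526773-95526802, plus strand, GENCODE exon: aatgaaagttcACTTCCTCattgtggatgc
Ctsc, chr7:88277923-88277952, plus strand, upstream of the gene: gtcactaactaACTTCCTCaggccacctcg
Ctsd, chr7:142387908-142387937, minus strand, GENCODE exon: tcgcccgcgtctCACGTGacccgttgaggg
Ctsl, chr13:64370739-64370768, minus strand, GENCODE exon: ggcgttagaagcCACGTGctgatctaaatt
Lgmn, chr12:102439124-102439153, minus strand, GENCODE intron: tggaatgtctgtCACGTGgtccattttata
In Ctss and Ctsc the capitals read the motif on the opposite strand. The place labels are those of the GENCODE annotation, in which Ctsl has transcripts that start upstream of the gene limits in the count table, so its exon lies outside those limits. The Lgmn window belongs to the second of 2 annotated starts.

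Gene counts per library ran from 15240491 to 17730967, and libraries are called by the numbers in the table, 7, 8 and 9 (mild) and 13, 14 and 15 (severe). Severe libraries varied more than mild ones: the SD was larger among them for 73.0% of tested genes, and for 8 of the 10 genes here. Nothing in the labels ties each kidney to its own mouse, so the p-values cover the spread among these 6 samples and no more. Proximal tubule markers were present in every library, with a summed level of 45814 to 48054 CPM (read counts brought to a common library size after TMM adjustment) in mild and 20568 to 39675 CPM in severe kidneys. In whole-kidney RNA, a change in the number of cells of a type and a change in RNA per cell cannot be told apart.

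The 3 myeloid-rich genes stood higher in every severe kidney than in every mild kidney, by 1.82-fold for Ctsc, 2.63-fold for Ctss and 3.16-fold for Ctsk. Over all tested genes, 17.9% were higher in every severe than in every mild kidney. The 7 tubule-rich genes lay between 0.917-fold and 1.19-fold of their mild level. None of the 10 passed an adjusted p of 0.05 in edgeR's quasi-likelihood test over all genes, where 0.0134% of tested genes did. At an unadjusted p under 0.05 there were 3 of the 10, all higher, against 15.8% of tested genes that were higher and 7.89% that were lower. DESeq2 put the same 3 past the adjusted threshold (6.91% of genes higher), limma-voom put 0 there (0.0134% of genes in either direction), and limma-voom with sample quality weights put the 3 there (18.4% of genes higher). Without severe library 13 edgeR called Ctss, Ctsk and Ctsc (13.8% of genes higher), and without severe library 14 it called Ctss alone (2.40%).

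**Figure D1:**
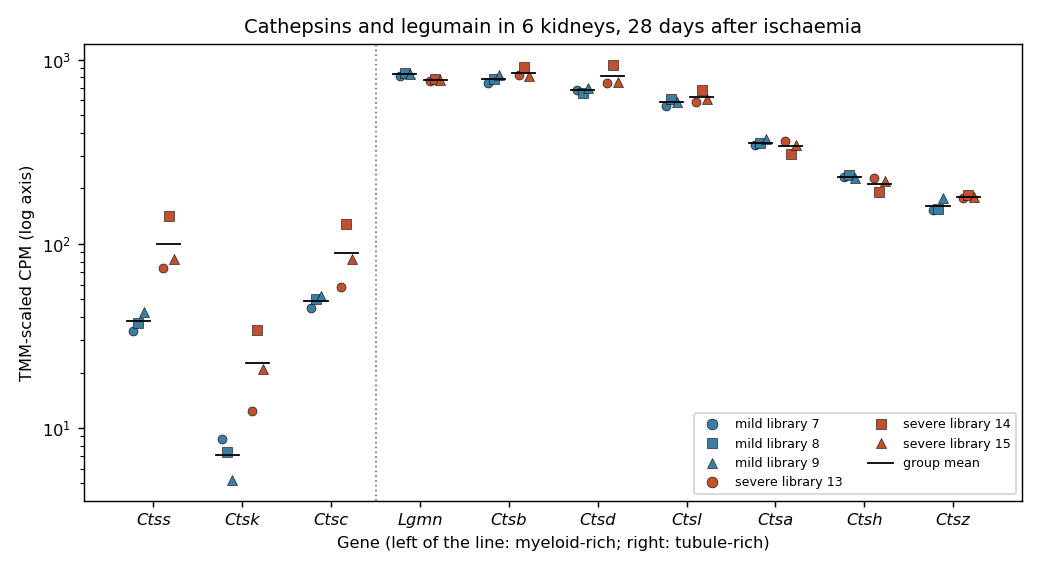
TMM-scaled CPM on a log axis for each gene in each of the 6 libraries, with mild libraries in blue, severe libraries in red and a line at each group mean (n = 3). The 3 genes left of the dotted line stand higher in severe libraries, with library 14 highest. Among the 7 genes on the right the differences are smaller: Ctsd lies higher and Ctsh and Lgmn lower without overlap, and the other 4 overlap.

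Cathepsin S (Ctss, ENSMUSG00000038642, chromosome 3, 95526786 to 95556403, plus strand) trims the invariant chain from MHC class II in antigen-presenting cells. It stood at 33.8, 37.1 and 42.8 CPM in mild libraries 7, 8 and 9 and at 74.1, 142 and 82.6 CPM in severe libraries 13, 14 and 15. All severe values were above all mild ones, and library 14 stood well above the other two. The fitted log2 fold change was 1.39 ± 0.24 (SE, n = 3 each; edgeR adjusted p = 0.0867), rank 71 of all tested genes by p. It was 1.05 without library 14.

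Cathepsin K (Ctsk, ENSMUSG00000028111, chromosome 3, 95499286 to 95509362, plus strand) is the collagen-degrading protease of osteoclasts and is also made by fibroblasts and some macrophages. It was the least abundant of the 10, at 8.68, 7.43 and 5.22 CPM in mild libraries 7, 8 and 9 and at 12.3, 34.1 and 20.9 CPM in severe libraries 13, 14 and 15. The groups did not overlap, though library 13 lay closer to mild library 7 than to library 14. Read counts behind these values ran from 76 to 606. The log2 fold change was 1.66 ± 0.36 (SE; edgeR adjusted p = 0.0867), and 1.22 without library 14. Of 8 tested osteoclast-type genes, 4 were higher without overlap (Mmp9, Tcirg1, Dcstamp and Nfatc1), each at an unadjusted p under 0.05, and 0 passed in edgeR. Over all tested genes 17.9% were higher without overlap and 15.8% were higher at that unadjusted p. The others had log2 fold changes of 0.39 (Calcr), 0.37 (Tnfrsf11a), 0.013 (Atp6v0d2) and -0.13 (Acp5), and the median of the 8 was 0.39. Mmp9, Tcirg1, Acp5 and Atp6v0d2 also stand in other lists below.

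Ctsk and Ctss are neighbours on the plus strand of chromosome 3, 17423 bases apart. The count ratio of Ctss to Ctsk was 3.89, 5.00 and 8.21 in mild libraries 7, 8 and 9 and 6.01, 4.17 and 3.95 in severe libraries 13, 14 and 15. This ratio overlapped between the groups.

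Cathepsin C (Ctsc, ENSMUSG00000030560, chromosome 7, 88278085 to 88310888, plus strand) is the dipeptidyl peptidase that activates the granule serine proteases of neutrophils, mast cells and cytotoxic lymphocytes. It stood at 44.9, 50.2 and 52.0 CPM in mild libraries 7, 8 and 9 and at 58.3, 128 and 82.1 CPM in severe libraries 13, 14 and 15. Library 13 was just above the mild range. The log2 fold change was 0.87 ± 0.25 (SE; edgeR adjusted p = 0.118), and 0.52 without library 14.

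Legumain (Lgmn, ENSMUSG00000021190, chromosome 12, 102394084 to 102439813, minus strand) cuts after asparagine and helps to mature several cathepsins. It stood at 812, 847 and 836 CPM in mild libraries 7, 8 and 9 and at 762, 782 and 778 CPM in severe libraries 13, 14 and 15. Every severe value was below every mild one, by a small margin. The log2 fold change was -0.10 ± 0.13 (SE; edgeR adjusted p = 0.620), and with library totals as the scaling it turned to 0.067.

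Cathepsin B (Ctsb, ENSMUSG00000021939, chromosome 14, 63122462 to 63145919, plus strand), a broad endopeptidase and carboxypeptidase, stood at 743, 781 and 825 CPM in mild and 824, 910 and 812 CPM in severe libraries, in order of library number. Cathepsin L (Ctsl, ENSMUSG00000021477, chromosome 13, 64363214 to 64370306, minus strand), a main endopeptidase of the tubule lysosome, stood at 558, 613 and 592 CPM in mild and 586, 684 and 613 CPM in severe libraries. The groups overlapped for both genes, and the log2 fold changes were 0.12 ± 0.13 and 0.094 ± 0.13 (SE; edgeR adjusted p = 0.6004 and 0.663). Without library 14 they were 0.063 and 0.028.

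Cathepsin D (Ctsd, ENSMUSG00000007891, chromosome 7, 142371148 to 142388038, minus strand) was the tubule-rich gene with the greatest difference. It stood at 686, 657 and 699 CPM in mild libraries 7, 8 and 9 and at 749, 937 and 753 CPM in severe libraries 13, 14 and 15. Every severe value was above every mild one, most clearly in library 14. The log2 fold change was 0.26 ± 0.15 (SE; edgeR adjusted p = 0.298), and 0.14 without library 14.

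Cathepsin A (Ctsa, ENSMUSG00000017760, chromosome 2, 164832873 to 164841032, plus strand), which also shields lysosomal beta-galactosidase and neuraminidase from breakdown, stood at 342, 353 and 369 CPM in mild and 362, 308 and 343 CPM in severe libraries. Cathepsin H (Ctsh, ENSMUSG00000032359, chromosome 9, 90054152 to 90076089, plus strand), an aminopeptidase, stood at 231, 235 and 228 CPM in mild and 226, 191 and 219 CPM in severe libraries. Both were lowest in severe library 14, and for Ctsh the groups did not overlap. Their log2 fold changes were -0.070 ± 0.11 and -0.13 ± 0.10 (SE; edgeR adjusted p = 0.717 and 0.456), and both turned positive with library totals as the scaling, at 0.093 and 0.037. Without library 14 they were -0.0084 and -0.054.

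Cathepsin Z (Ctsz, ENSMUSG00000016256, chromosome 2, 174427493 to 174439039, minus strand), a carboxypeptidase, stood at 152, 154 and 177 CPM in mild and 177, 183 and 180 CPM in severe libraries. Mild library 9 touched the severe range, and the severe libraries were close together. The log2 fold change was 0.16 ± 0.095 (SE; edgeR adjusted p = 0.310).

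**Figure D2:**
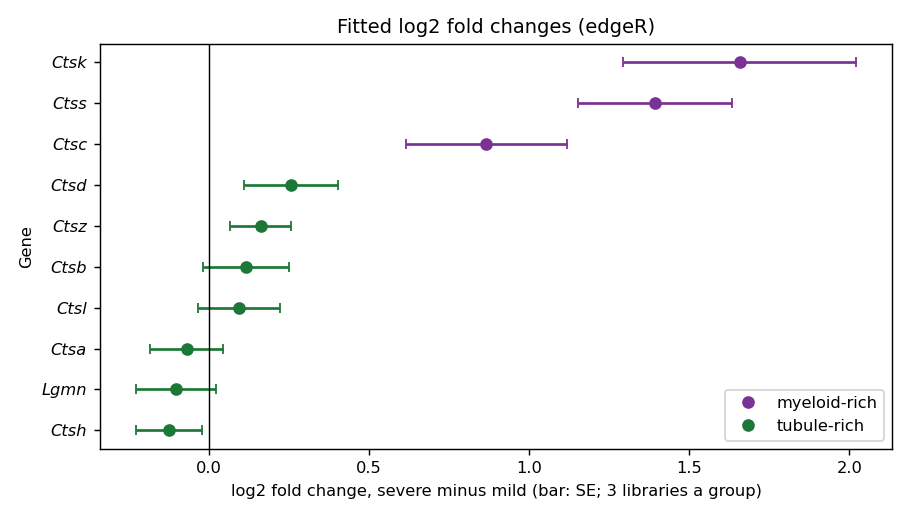
Fitted log2 fold change of each gene, severe minus mild, with its standard error as a bar (edgeR, 3 libraries a group). The 3 myeloid-rich genes lie between 0.87 and 1.66, and the 7 tubule-rich genes between -0.13 and 0.26.

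Over the 10 genes the median log2 fold change was 0.14, against 0.000194 over all tested genes. In 4 of the 10 every severe library was above every mild library, against 17.9% of all tested genes, and in 2 every severe library was below, against 16.1%. The 4 were Ctss, Ctsk, Ctsc and Ctsd, and the 2 were Ctsh and Lgmn. With library totals as the scaling, which shifts the median of all genes by 0.17, the counts were 7 higher and 0 lower, against 29.2% and 6.61% of all genes. Severe library 14 held the highest value of 7 of the 10 genes. In the table's coordinates 6 of the 10 overlap another gene. On the opposite strand Ctsa shares 1515 bases with Pltp and 584 with Neurl2, Ctsb 767 with Fdft1, Ctsc 4743 with Gm26522 and Ctsz 10 with Nelfcd. On its own strand Ctsd shares 2606 bases with Ifitm10 and Ctss 557 with Hmgb1-ps5. Over the 6 libraries Gm26522 had 1 read, Hmgb1-ps5 had 6, Neurl2 had 66, Ifitm10 had 145 and the other three had 1731 to 3714. Since the strand setting of the counting is not given in the sources used here, reads on the opposite strands could not be assigned with certainty, and no strand setting separates genes on the same strand.

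Per kilobase of the authors' gene length, the order of mean levels was the same in both groups. In mild kidneys it ran from Lgmn at 418 ± 8.74 CPM per kb (SD, n = 3) through Ctsd, Ctsl, Ctsb, Ctsz, Ctsa, Ctsh, Ctss and Ctsc to Ctsk at 4.80 ± 1.18 CPM per kb. The only neighbours in that order whose ranges overlapped were Ctsd and Ctsl. In severe kidneys 3 neighbouring pairs overlapped: Lgmn with Ctsd (389 ± 5.26 and 382 ± 50.5 CPM per kb), Ctsh with Ctss (77.3 ± 6.90 and 73.5 ± 27.3) and Ctsc with Ctsk (27.9 ± 11.01 and 15.1 ± 7.40). Ctss had stood at 28.0 ± 3.38 CPM per kb in mild kidneys, below Ctsh at 84.3 ± 1.29. The 3 myeloid-rich genes made up 2.99%, 3.11% and 3.25% of the summed level per kb of all 10 in mild libraries 7, 8 and 9, and 5.10%, 9.21% and 6.19% in severe libraries 13, 14 and 15. The tubule-rich genes held the rest, 94.9%, 90.8% and 93.8% in those severe libraries.

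Within a library the ratio of 2 genes does not depend on the scaling between libraries. In all 21 ratios of a myeloid-rich to a tubule-rich gene, every severe library was above every mild library. Ctss reads stood to Lgmn reads as 0.0416, 0.0439 and 0.0512 in mild libraries 7, 8 and 9 and as 0.0972, 0.182 and 0.106 in severe libraries 13, 14 and 15, a difference of 1.44 on the log2 scale. With all 6 libraries the differences ran from 0.54 for Ctsc to Ctsd up to 1.70 for Ctsk to Ctsh. Without severe library 14 they ran from 0.35 for Ctsc to Ctsz up to 1.32 for Ctsk to Lgmn, with Ctsc to Ctsd at 0.36. Each ratio had an exact two-sided permutation p of 0.1, the smallest that 3 against 3 kidneys allow, and 0.1 after Benjamini-Hochberg adjustment over the 21. The ratios share genes and libraries and are not independent.

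**Figure D3:**
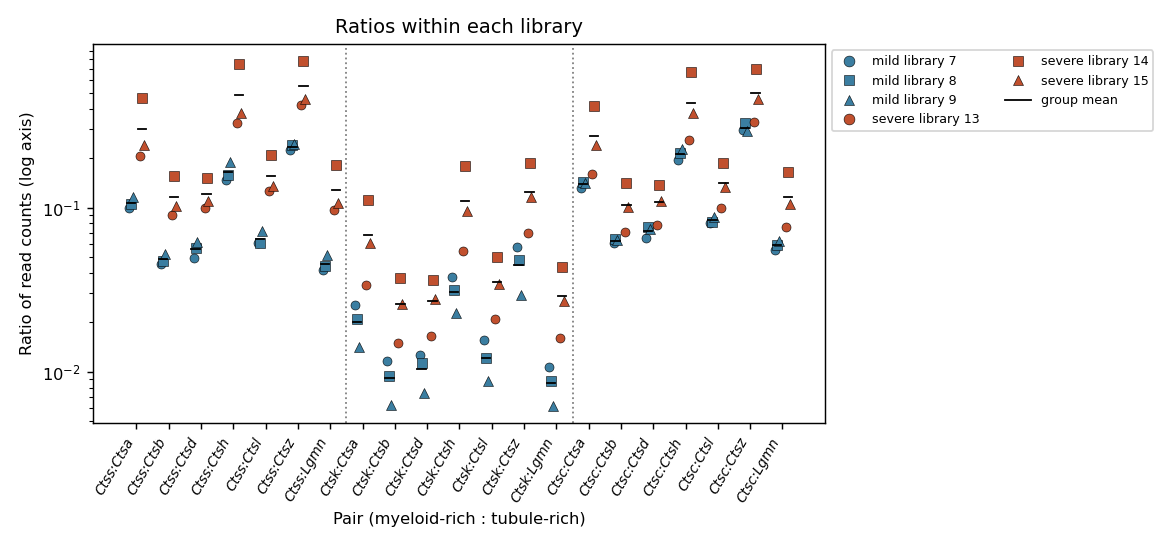
Ratio of read counts of a myeloid-rich to a tubule-rich gene within each library, on a log axis, for 21 pairs, with a line at each group mean (n = 3). Severe points lie above mild points in each pair, by the least in the Ctsc pairs, where severe library 13 is close to the mild libraries.

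On the log2 scale the mean level of the myeloid-rich genes minus that of the tubule-rich genes was -4.18, -4.20 and -4.32 in mild libraries 7, 8 and 9 and -3.59, -2.45 and -3.12 in severe libraries 13, 14 and 15. The severe mean was 1.18 higher. The difference lay in the myeloid-rich genes: their mean, set against the mild mean, stood at 0.68, 1.86 and 1.15 in libraries 13, 14 and 15, while that of the tubule-rich genes stood at 0.032, 0.074 and 0.030. Without Ctsk the difference between the classes was 1.02, and without Ctsz and Ctsd among the tubule-rich genes it was 1.25.

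Markers of some other cell types differed across the same libraries. Over all tested genes, 15.8% were higher at an unadjusted p under 0.05 in edgeR and 17.9% were higher without overlap. Of 24 macrophage and monocyte markers, 0 passed in edgeR, 23 were higher at an unadjusted p under 0.05, and in 21 every severe library was above every mild one; the median log2 fold change was 1.10. Their summed level was 580 to 676 CPM in mild and 985 to 1809 CPM in severe kidneys, and no marker was at 0. All 14 fibroblast and myofibroblast markers were higher without overlap (0 passed in edgeR, 14 at an unadjusted p under 0.05), with sums of 795 to 978 and 1652 to 5289 CPM and a median log2 fold change of 1.86. The mean of the macrophage list, set against mild kidneys, was 0.57, 1.51 and 0.97 in severe libraries 13, 14 and 15, the same order of libraries as for the 3 myeloid-rich genes. That order was not particular to these lists. Injured tubule markers had it too, with sums of 3093, 10585 and 5745 CPM in those libraries and of 2285 to 3013 CPM in mild kidneys. Proximal tubule markers had the reverse, at 39675, 20568 and 35733.5 CPM. Of 12 neutrophil markers only Mmp9 and Csf3r had enough counts for a test. Both were higher without overlap (0 passed in edgeR, 2 at an unadjusted p under 0.05), with a median log2 fold change of 1.39. The summed level of the list was 3.98 to 6.29 CPM in mild and 10.5 to 20.6 CPM in severe kidneys, and Mpo and Camp were at 0 in all libraries. In 14 dendritic cell and antigen presentation genes 0 passed in edgeR, 12 were higher at an unadjusted p under 0.05 and the median was 0.75. Lists of some other cell types moved less. The median was 0.55 for 8 tested T and NK cell markers, 0.11 for 4 B cell, 0.060 for 10 endothelial and 0.014 for 7 podocyte markers. At an unadjusted p under 0.05 in edgeR, 0, 1, 1 and 1 of these were higher, and 0 passed. The median was -0.40 for 14 markers of the loop of Henle, distal tubule and collecting duct, and -0.21 without severe library 14. Of these 14, 6 were lower without overlap and 5 were lower at an unadjusted p under 0.05 in edgeR, where 0 passed. The shares over all tested genes were 16.1% and 7.89%. Without severe library 13 edgeR called 23 of the macrophage and 14 of the fibroblast markers higher, and without severe library 14 it called 18 and 3 (13.8% and 2.40% of all genes). The part of these markers in the cathepsin differences was not tested.

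Set against the mean of the macrophage list in the same library, the 3 myeloid-rich genes went different ways. Ctss was 0.32 higher on the log2 scale in severe kidneys, without overlap of the groups, and Ctsc 0.22 lower, without overlap. Ctsk was 0.54 higher with overlapping groups. Set against the fibroblast list, a comparison added after seeing the data, Ctsk differed by -0.019 with the mean of that list and by 0.36 with its median, and from -0.12 to 0.057 with 1 library left out. Against the macrophage list, Ctsk differed by 0.27 without mild library 9. The 7 tubule-rich genes all stood higher in severe kidneys relative to the proximal tubule list, from 0.41 for Ctsh to 0.79 for Ctsd. Severe library 14 weighed most: without it all 7 were still higher, but by 0.19 for Lgmn (0.44 with all libraries), 0.25 for Ctsh, 0.37 for Ctsb (0.66 with all libraries) and 0.45 for Ctsd. That list itself had a median log2 fold change of -0.51, with 15 of 20 markers lower without overlap, against 16.1% of all tested genes. In edgeR 9 were lower at an unadjusted p under 0.05, against 7.89% of all tested genes, and 0 passed the adjusted threshold. Without severe library 14 its median was -0.29 and 3 markers passed as lower (0.931% of all genes), and without severe library 13 it was -0.70 and 13 passed (7.74%). Injured tubule markers had a median of 1.44 (9 of 10 at an unadjusted p under 0.05, 0 past the adjusted threshold in edgeR), and of 0.89 without severe library 14 (4 of 10). With all libraries 15.8% of all tested genes were higher at that unadjusted p. Only 4 of the 10 injured tubule markers were higher without overlap, against 17.9% of all tested genes.

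**Figure D4:**
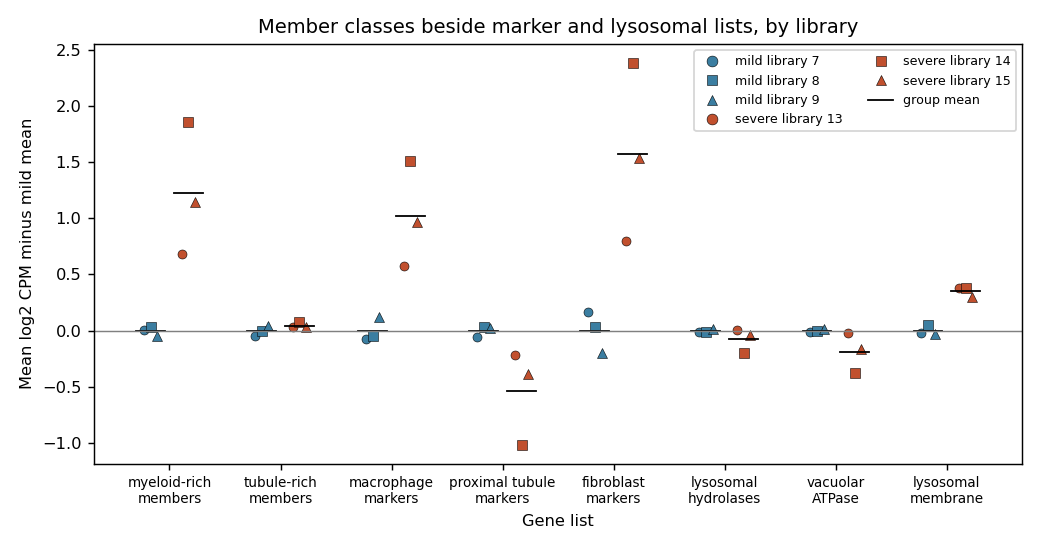
Mean log2 CPM of each gene list minus its mean over the mild libraries, for each of the 6 libraries, with a line at each group mean (n = 3). The myeloid-rich genes spread over the severe libraries in the same order as the macrophage and fibroblast markers, and the proximal tubule markers in the reverse order. The tubule-rich genes stay near 0 while the proximal tubule markers lie below it.

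By Pearson correlation of log2 CPM over the 6 libraries, the genes outside the family most like Ctss were Zfp189, Lpcat2 and Mpeg1. Those most like Ctsk were Sdk2, Mxra8 and Prrx2, and those most like Ctsc were Serpina3n, Thy1 and Rhou, with r between 0.998 and 0.999 for these 9. Of the 9, Mpeg1 is on the macrophage list used above and Thy1 on the fibroblast list. Such values are common here: 653 tested genes had r above 0.95 with Ctss, 784 with Ctsk and 969 with Ctsc, in libraries that share the contrast of the groups and the spread of the severe kidneys. Ctsl was most like Gnl3, Ddhd2 and Crlf3 (r from 0.993 to 0.996), and Lgmn most like Mettl21b, Bdnf and Gm20646 (r from 0.986 to 0.989, with 16 genes above 0.95). Within the family Ctss and Ctsc were closest to each other (r = 0.949), Ctsk and Ctsl were each closest to Ctsc (0.920 and 0.896), and the closest to Lgmn was Ctsh (0.490).

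Of 17 other cathepsin and related genes, 7 had enough counts for a test and 10 were at 0 in all libraries, among them the neutrophil protease gene Ctsg and the rodent placental cathepsins. None of the 7 passed in edgeR. Tinag, a cathepsin-like protein of the tubule basement membrane, averaged 131 ± 2.93 CPM after mild and 103 ± 16.9 CPM after severe injury (SD, n = 3), a log2 fold change of -0.36 ± 0.12, and was the 1 gene of the 7 at an unadjusted p under 0.05. Napsa, an aspartic protease of the proximal tubule, stood at 978, 991 and 974 CPM in mild and 892, 578 and 894 CPM in severe libraries. Ctsf stood at 75.1 ± 3.28 and 64.02 ± 10.1 CPM. In these 3 of the 7 genes every severe library was below every mild one, against 16.1% of all tested genes. At an unadjusted p under 0.05 in edgeR, 7.89% of all tested genes were lower. Ctso (36.7 ± 3.17 and 41.2 ± 3.82 CPM), Tinagl1 (69.6 ± 5.87 and 73.9 ± 1.81 CPM), Ctse (0.980 ± 0.644 and 1.60 ± 0.236 CPM) and Ctsw (1.30 ± 0.262 and 1.80 ± 0.449 CPM) had overlapping groups.

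Among 23 genes for inhibitors of these proteases, 8 were tested and 0 passed in edgeR. At an unadjusted p under 0.05, 2 were higher and 1 lower, against 15.8% and 7.89% of all tested genes. Serpinb6a, a serpin, stood at 20.7, 21.02 and 21.1 CPM in mild and 28.4, 51.5 and 33.1 CPM in severe libraries, a log2 fold change of 0.85 ± 0.21 (SE; edgeR adjusted p = 0.0960) without overlap. Ctla2b, which resembles the propeptide of cysteine proteases, stood at 0.793 ± 0.209 and 1.98 ± 0.813 CPM (SD, n = 3). The secreted inhibitor cystatin C (Cst3) stood at 245, 219 and 209 CPM in mild and 244, 275 and 268 CPM in severe libraries, and the cytosolic cystatin B (Cstb) at 68.9, 64.6 and 70.1 CPM and 68.5, 120 and 81.0 CPM. The groups overlapped for both cystatins. The kininogen gene Kng2 went the other way, with 299.7 ± 10.1 CPM after mild and 230.5 ± 45.2 CPM after severe injury, without overlap. Cst7, an inhibitor made by leukocytes, stood at or below 0.394 CPM in every library, where 3 counts are worth 0.169 to 0.207 CPM, and was not tested.

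The rest of the lysosome did not shift as one. In a list of 42 genes, mostly for lysosomal hydrolases other than cathepsins, 0 passed in edgeR, and the median log2 fold change was -0.11 (-0.035 without severe library 14). At an unadjusted p under 0.05, 5 were higher and 3 lower, near the shares of all tested genes (15.8% and 7.89%). Without overlap, 5 of the 42 were higher and 11 lower, against 17.9% and 16.1% of all tested genes. Hexa, a subunit of beta-hexosaminidase, stood at 73.2 ± 4.29 and 94.9 ± 17.04 CPM, Dnase2a at 11.6 ± 0.527 and 15.6 ± 2.23 CPM and Galns, a sulfatase, at 150 ± 7.58 and 108 ± 26.7 CPM (SD, n = 3). Among 23 subunits of the vacuolar ATPase, which acidifies the lysosome, the median was -0.23 (-0.12 without severe library 14). In 11 every severe library was below every mild one, against 16.1% of all tested genes. In edgeR 0 passed, and 1 was higher and 3 lower at an unadjusted p under 0.05, against 15.8% and 7.89% of all tested genes. The exception on the higher side was Tcirg1, the subunit of osteoclasts and macrophages, at 46.2 ± 2.78 and 63.8 ± 7.61 CPM (log2 fold change 0.46 ± 0.10, edgeR adjusted p = 0.0867). In a list of 18 genes for lysosomal membrane proteins, which also holds soluble proteins of the lumen such as Npc2, the median was 0.021 (0 passed in edgeR, 5 higher at an unadjusted p under 0.05). Those 5 were Cd68 (log2 fold change 1.27 ± 0.17), Gpnmb (3.68 ± 0.71), Laptm5 (1.01 ± 0.21), Slc11a1 (1.05 ± 0.24) and the soluble cholesterol-binding protein Npc2 (0.21 ± 0.089). Cd68 and Laptm5 are also on the macrophage list. Gpnmb, a glycoprotein of macrophages and pigment cells, stood at 0.896, 1.68 and 0.480 CPM in mild libraries 7, 8 and 9 and at 26.4, 8.27 and 5.53 CPM in severe libraries 13, 14 and 15. It was highest in library 13, unlike the myeloid-rich cathepsins, and its log2 fold change was 2.74 without that library.

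In a list of 18 genes, mostly for mannose 6-phosphate tagging, sorting receptors and their coats, 0 passed in edgeR, 1 was higher and 2 lower at an unadjusted p under 0.05 (15.8% and 7.89% over all tested genes), and the median log2 fold change was -0.073. The higher one was Scarb2, a membrane protein that carries glucocerebrosidase to the lysosome, at 30.9, 29.2 and 27.0 CPM in mild and 37.7, 53.3 and 39.3 CPM in severe libraries. The 2 lower ones were Gnptg, a subunit of the phosphotransferase that starts the tagging (74.2 ± 2.25 and 62.3 ± 7.19 CPM; SD, n = 3), and Hyou1, a chaperone of the endoplasmic reticulum (152 ± 3.36 and 129 ± 13.6 CPM). The receptor Igf2r, which binds mannose 6-phosphate, stood at 176 ± 9.81 and 142 ± 26.1 CPM (SD, n = 3) with overlapping groups. Among 13 MiT/TFE factors and their regulators 0 passed in edgeR, 1 was higher and 1 lower at an unadjusted p under 0.05, and the median was -0.085. Tfe3 stood at 31.4, 32.6 and 29.0 CPM in mild and 33.6, 35.3 and 37.01 CPM in severe libraries, and Tfec at 24.9, 22.8 and 24.2 CPM and 19.9, 18.6 and 18.8 CPM. The groups did not overlap for either factor.

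**Figure D5:**
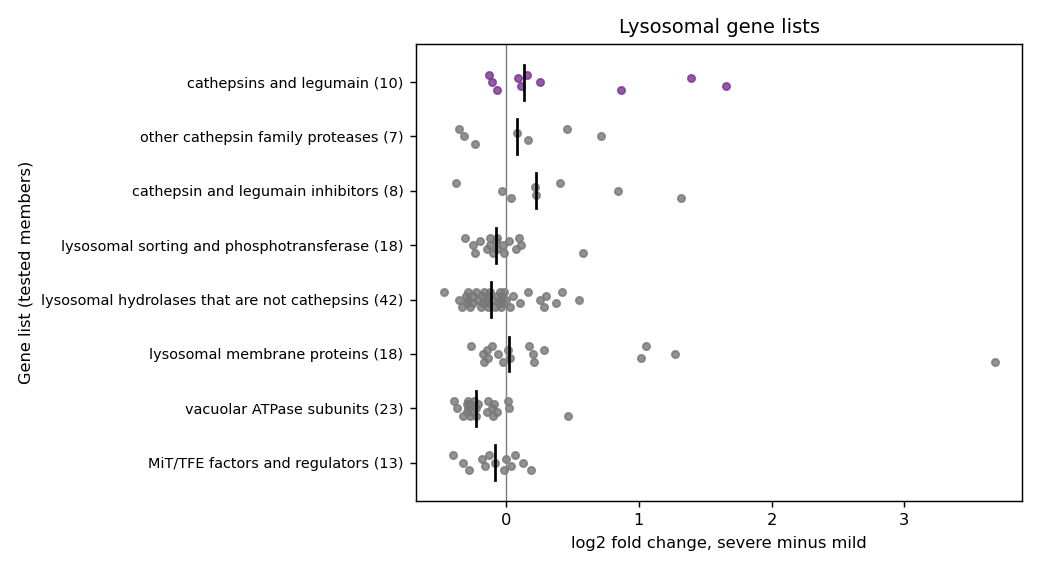
Fitted log2 fold change, severe minus mild, of each tested gene (1 point a gene) in the cathepsin and legumain set and in 7 lists of lysosomal genes, with a black line at each median. The medians lie between -0.23 for the vacuolar ATPase subunits and 0.22 for the inhibitors. A few genes stand apart to the right, as Ctss, Ctsk and Ctsc do in the top row. Gpnmb does so at 3.68 (2.74 without severe library 13) in the membrane protein list. Others lie to the left, as Galns does at -0.47 among the hydrolases.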

How the data were processed

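Raw read counts per Ensembl gene, with a gene length, are what the authors deposited. Bowtie2 2.2.3, TopHat2 2.0.12, HTSeq 0.6.1 and build mm10 are listed in the submitters' processing notes, without roles. Strand setting and annotation release: not given in the sources used here. Column names gave each library's minutes of ischaemia and matched no single title, so columns were replicates of their group. Chi-square per degree of freedom between replicates was 3.67 to 70.04 (1 would be sampling noise alone), so no library was the same library sequenced again. Separate preparations from 1 kidney or mouse could also exceed sampling noise, so this does not show that the kidneys were separate.

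After filterByExpr and TMM scaling, edgeR 4.0.16 (R 4.3.3, robust quasi-likelihood F test) compared the groups over all genes tested, with Benjamini-Hochberg adjustment and a threshold of 0.05. The SE was taken as the log2 fold change over the square root of F. Log2 CPM used a prior count of 2. The steps were tested on simulated counts. Alternatives used DESeq2 1.42.0 and limma 3.58.1. Named genes are the 10 members and, per list, up to 4 with the smallest p, plus tested inhibitors and other cathepsins. Npc2, Cst7, Mpo, Camp, Ctsg and the other tested osteoclast-type genes were singled out after their values were seen. Members and lists were chosen with earlier results of these data known. The floor of 3 counts covers counting error only. Figures used matplotlib 3.10.9.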

Additional observations from a re-analysis of the deposited data

How the results depend on the processing

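No paired analysis was possible because the kidneys are numbered without repeats in the labels and the columns carry numbers that match no label. Genes past the threshold numbered 2, against 1 with library totals, 146 with no filter, 1171 with DESeq2, 5080 with limma-voom and sample quality weights, and 0 to 3269 with 1 library left out (3269 without severe library 13, 501 without severe library 14). Of the 10 genes, 0 passed, against 3 with DESeq2, 3 with quality weights and 0 to 3 with 1 library left out. Their median log2 fold change of 0.14 was 0.31 with library totals, which shift all genes, and 0.10 to 0.20 with 1 library left out. With library totals Ctsa, Ctsh and Lgmn turned to 0.093, 0.037 and 0.067. Relative to the fibroblast list, Ctsk and Ctss turned to 0.36 and 0.15 with the median of that list. The Ctsk value against that list (-0.019) also changed sign with 1 library left out (-0.12 to 0.057; 0.057 and 0.0099 without mild libraries 7 and 8, 0.025 without severe library 14). The cause of these changes was not tested. The class difference of 1.18 kept its sign and stayed within 1 SD under its alternatives (0.88 to 1.45 with 1 library left out). For the separation of the 21 ratios leaving out a library is no check, because groups that do not overlap cannot come to overlap that way. Leaving out libraries for the gene lists, for values against a list and for the size of single ratios was added after seeing the data.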
